A study of Mus musculus with 21 samples.

Results

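In embryoid bodies made from Cxxc5 knockout and wild type mouse cells, 6 genes were called higher in knockout at day 0, at day 3 and at day 6 of differentiation: Capg, Cuedc1, Kctd15, Ppp1r14a, Stard10 and AI661453. They were chosen by their FPKM values, because each had an adjusted p under 0.05 by limma on all 3 days. The table holds 24458 genes, and the 12472 with a mean level of at least 1 FPKM (fragments mapped per kilobase of a transcript, relative to all those mapped in the library) were tested. Since the genotype difference chose them, it is given below as a description with no test. Changes between days, averaged over both genotypes, were not part of the choice and were tested, as were related genes and chromosomal neighbours. The tests between days use the same error estimate per gene as the choice did. The errors and p-values of the 6 genes in them may thus be too small.

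The study addressed the role of Cxxc5, named Rinf in the labels, in the pluripotency programme of mouse embryonic stem cells (ESCs) and in their differentiation. The knockout group was labelled Rinf Knockout and the other group Rinf Wild type, both on a mixed 129/C57BL/6 background. The ESCs were grown in serum with leukaemia inhibitory factor (LIF). They were then aggregated in hanging drops into embryoid bodies, spheroids in which ESCs differentiate. Total RNA was sequenced from 2 libraries per genotype at each of days 0, 3 and 6, which makes 12 libraries. Per the labels, the 2 libraries of a genotype come from 2 independent ESC lines. The error given below is thus the spread within genotype and day, between these lines and cultures. Differences that the lines of a genotype shared before the experiment are part of the genotype difference and not of that error. Which part of Cxxc5 was deleted is not stated in those labels. In bulk RNA, a larger share of cells of a type and more RNA per cell cannot be told apart.

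The CXXC zinc finger of the Cxxc5 protein recognises CpG that carries no methyl group. The 6 genes were chosen by their values and not by a pathway. Capg and Ppp1r14a act on actin and myosin: Capg caps the barbed ends of actin filaments, and Ppp1r14a, also named CPI-17, inhibits myosin phosphatase when it is phosphorylated and is best known from smooth muscle. Kctd15 encodes a BTB domain protein that in zebrafish restrains the transcription factor AP-2 and neural crest formation. Cuedc1 carries a CUE domain, a fold that binds ubiquitin, and Stard10 carries a START domain and transfers phosphatidylcholine and phosphatidylethanolamine between membranes. AI661453 is annotated in RefSeq as an uncharacterized protein.

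The genes lie at chr6:72538282-72562983 for Capg, chr11:88099146-88194140 for Cuedc1, chr7:34636999-34655509 for Kctd15, chr7:29289320-29293390 for Ppp1r14a, chr7:101317086-101346626 for Stard10 and chr17:47436639-47470638 for AI661453. These positions are from RefSeq on build GRCm38.p6 (mm10), and Kctd15 is the gene on the minus strand. Chromosome 7 holds 3 of the 6 genes, far apart from one another, and 8.04% of the 12444 tested genes with a position. Since Cxxc5 binds CpG, the promoters are shown for the contrast in CpG among genes that differ in the same direction. Each RefSeq window runs from 250 bases before to 50 bases after a transcript start, on the strand of the gene, with each CG in capitals.
Capg chr6:72549397-72549696 (+): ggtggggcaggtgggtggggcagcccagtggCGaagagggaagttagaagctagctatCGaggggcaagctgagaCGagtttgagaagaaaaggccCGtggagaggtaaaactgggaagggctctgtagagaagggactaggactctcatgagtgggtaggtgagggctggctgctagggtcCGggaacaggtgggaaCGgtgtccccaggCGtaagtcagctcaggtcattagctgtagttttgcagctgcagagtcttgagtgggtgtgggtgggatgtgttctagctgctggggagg
Stard10 chr7:101316836-101317135 (+): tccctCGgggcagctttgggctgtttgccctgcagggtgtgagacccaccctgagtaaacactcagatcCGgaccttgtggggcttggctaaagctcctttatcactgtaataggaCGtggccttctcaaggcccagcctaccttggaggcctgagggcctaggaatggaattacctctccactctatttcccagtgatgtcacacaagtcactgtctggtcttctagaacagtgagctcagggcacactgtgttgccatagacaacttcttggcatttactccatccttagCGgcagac
Ppp1r14a chr7:29289070-29289369 (+): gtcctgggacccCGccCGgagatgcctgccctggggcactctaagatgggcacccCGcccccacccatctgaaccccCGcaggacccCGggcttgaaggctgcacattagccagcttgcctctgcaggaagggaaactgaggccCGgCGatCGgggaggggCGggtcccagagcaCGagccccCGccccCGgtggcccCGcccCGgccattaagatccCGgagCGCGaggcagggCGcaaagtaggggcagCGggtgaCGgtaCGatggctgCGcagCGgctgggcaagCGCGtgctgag
Kctd15 chr7:34654349-34654648 (-): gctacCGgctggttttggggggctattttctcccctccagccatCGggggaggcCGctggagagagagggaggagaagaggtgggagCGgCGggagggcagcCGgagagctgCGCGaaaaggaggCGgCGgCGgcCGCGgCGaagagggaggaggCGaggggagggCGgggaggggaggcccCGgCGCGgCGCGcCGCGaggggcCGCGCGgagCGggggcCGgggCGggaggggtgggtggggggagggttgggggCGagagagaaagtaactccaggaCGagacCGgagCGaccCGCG
The windows of Capg and Stard10 hold 7 and 4 CG, and those of Ppp1r14a and Kctd15 hold 25 and 35. The Capg window lies inside the gene, and the outermost start of Capg, at 72538282, had no window and was not counted. Over 12124 windows of 9484 tested genes the median was 21 CG. At least as many CG as in the window of Stard10 were found in 94.0% of these windows, and at least as many as in that of Kctd15 in 13.7%. The window of AI661453 holds 34 CG. Cuedc1 has a window with 22 CG and another with 6, and Kctd15 has further windows with 14 and 31. Windows with few and with many CG thus both occur among the 6 genes. On both strands, the GC box GGGCGG was found in 6 of the 9 windows of the 6 genes, which belong to 4 genes, and in 64.1% of all windows. Each of its matches holds a CG that is in the count above, so the 2 counts are not separate. The AP-2 motif GCCNNNGGC was found in 2 of the 9 windows, both of Kctd15, and in 25.3% of all windows. TATAAA and the E-box CACGTG were found in 0 of the 9, and in 6.8% and 10.1% of all windows.

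Cxxc5, the targeted gene, had 6.87 and 8.64 FPKM in knockout replicates 1 and 2 at day 0, against 31.4 and 25.1 in wild type. At day 3 it had 5.05 and 7.08 FPKM in knockout, against 30.9 and 36.1 in wild type. At day 6 it had 9.38 and 11.9 FPKM in knockout, against 39.8 and 52.3 in wild type. All knockout libraries lay below all wild type libraries, with means at 27.5%, 18.1% and 23.1% of wild type on days 0, 3 and 6. The 8 pluripotency markers examined, among them Pou5f1, Sox2 and Nanog, were all at 0.1 FPKM or above in at least 1 library of every group. Their sum was 2029.6 to 2109.8 FPKM in knockout and 2314 to 2334 FPKM in wild type at day 0, so lower in knockout. At day 3 it was higher in knockout (1156 to 1166 FPKM) than in wild type (1085 to 1095 FPKM), and at day 6 the ranges overlapped (259 to 574 FPKM in knockout, 512 to 816 FPKM in wild type). Of these markers limma called 0 at days 0 and 3, where 1 had an unadjusted p under 0.05 on each, and 1 at day 6, Sox2, which was lower (-1.36, adjusted p = 0.0485). Over all tested genes 14.7%, 14.8% and 46.4% had an unadjusted p under 0.05 on days 0, 3 and 6, and 0.369%, 1.19% and 34.1% were called. The call of Sox2 ended in 10 of the 12 fits without 1 library, with an adjusted p of up to 0.301 without knockout day 6 replicate 2. The part of these markers in the results that follow was not tested. The Y-linked genes Eif2s3y, Ddx3y and Uty also separated the genotypes in every library. Eif2s3y, for example, lay between 1.4 and 3.92 FPKM in knockout and between 9.4 and 20.4 FPKM in wild type. The part of this difference was not tested either. Estimated depth was 16.6 to 36.0 M reads per library, so that 1 FPKM in a 2 kb transcript equals 29.9 to 64.8 reads.

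Capg and Ppp1r14a, which act on the cytoskeleton, were the most abundant of the 6 genes at day 0 in both genotypes. Capg, the actin capping protein, had 35.4 and 38.2 FPKM in knockout replicates 1 and 2 at day 0, against 22.9 and 22.4 in wild type. Its level at day 3 was 34.5 and 37.4 FPKM in knockout, against 22.6 and 24.7 in wild type. Its level at day 6 was 23.1 and 23.0 FPKM in knockout, against 14.2 and 10.9 in wild type. Capg thus had the highest mean level per length of the 6 genes in both genotypes on each day, although Stard10 stood above it in wild type day 6 replicate 2 (11.89 against 10.89 FPKM). On each day all its knockout values exceeded its wild type values. Knockout cells at day 6 had levels within the range that wild type cells had at days 0 and 3. The knockout mean was 1.63, 1.52 and 1.84 times the wild type mean on days 0, 3 and 6. Capg is abundant in macrophages, and of the 8 macrophage markers examined, Ptprc, Tyrobp and Adgre1 lay under 0.1 FPKM in each genotype on each day. Of the 8 markers, only Cd68 was tested between genotypes, and limma called it on no day, with no unadjusted p under 0.05. The summed level of the macrophage list at day 0 was 7.39 to 8.04 FPKM in knockout and 8.94 to 9.71 FPKM in wild type. At day 3 the ranges of that sum overlapped (5.29 to 5.55 FPKM in knockout, 3.73 to 5.86 in wild type), and at day 6 it was higher in knockout (5.63 to 5.75 FPKM) than in wild type (4.26 to 5.36 FPKM), and its part in the difference of Capg was not tested.

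Ppp1r14a, the myosin phosphatase inhibitor, had 18.3 and 17.4 FPKM in knockout replicates 1 and 2 at day 0, against 10.3 and 11.3 in wild type. By day 3 its level was 16.9 and 17.1 FPKM in knockout, against 11.8 and 9.45 in wild type. By day 6 its level was 14.6 and 17.1 FPKM in knockout, against 8.93 and 8.48 in wild type. Every knockout library lay above every wild type library whatever the day, with 14.6 FPKM as the lowest knockout value and 11.8 FPKM as the highest wild type value. The knockout mean was 1.65, 1.60 and 1.82 times the wild type mean on days 0, 3 and 6. Of the 8 smooth muscle markers examined, 5 were tested, and limma with Benjamini-Hochberg adjustment called 0 of them between genotypes on any day. An unadjusted p under 0.05 was found for 2 at day 0, 0 at day 3 and 1 at day 6. Of all tested genes, 0.369%, 1.19% and 34.1% were called on those days, and 14.7%, 14.8% and 46.4% had such a p. With 5 genes, nothing is read from these counts. The summed level of the 8 markers was 26.9 to 38.0 FPKM in knockout and 21.8 to 22.0 FPKM in wild type at day 0. At day 3 it was 70.0 to 71.5 FPKM in knockout and 53.0 to 71.3 FPKM in wild type, and at day 6 it was 39.7 to 48.8 FPKM in knockout and 48.7 to 52.6 FPKM in wild type. The sum was thus higher in knockout without overlap at day 0 only, and its part in the difference of Ppp1r14a was not tested.

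Kctd15, the BTB domain gene, had 13.1 and 13.7 FPKM in knockout replicates 1 and 2 at day 0, against 7.85 and 8.17 in wild type. On day 3 these were 9.68 and 9.60 FPKM in knockout, against 4.93 and 3.72 in wild type. On day 6 these were 10.03 and 11.2 FPKM in knockout, against 7.11 and 7.86 in wild type. Like Ppp1r14a, Kctd15 had every knockout library above every wild type library, with 9.60 FPKM as the lowest knockout value and 8.17 FPKM as the highest wild type value. Its ratio of means was 1.67, 2.23 and 1.42 on days 0, 3 and 6. The ratio at day 3 goes with the lowest wild type values that the gene had.

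Cuedc1, the CUE domain gene, was among the less abundant of the 6. It had 3.01 and 2.86 FPKM in knockout replicates 1 and 2 at day 0, against 1.49 and 1.66 in wild type. It reached 3.97 and 4.25 FPKM in knockout at day 3, against 2.53 and 2.31 in wild type. It reached 6.36 and 6.76 FPKM in knockout at day 6, against 4.88 and 5.55 in wild type. Both genotypes stood higher on each later day, and the knockout libraries lay above the wild type libraries of the same day. The ratio of means was 1.86, 1.70 and 1.26 on days 0, 3 and 6.

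Stard10, the lipid transfer gene, had 6.18 and 6.57 FPKM in knockout replicates 1 and 2 at day 0, against 3.91 and 3.50 in wild type. Its values at day 3 were 16.6 and 16.7 FPKM in knockout, against 12.6 and 11.7 in wild type. Its values at day 6 were 15.3 and 16.8 FPKM in knockout, against 12.7 and 11.9 in wild type. The step between days 0 and 3 exceeded the difference between genotypes, so that wild type cells at day 3 lay above knockout cells at day 0. The ratio of means was 1.72, 1.37 and 1.31 on days 0, 3 and 6.

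AI661453 had 2.85 and 3.52 FPKM in knockout replicates 1 and 2 at day 0, against 1.47 and 1.35 in wild type. Day 3 brought 4.74 and 5.12 FPKM in knockout, against 3.14 and 2.76 in wild type. Day 6 brought 4.90 and 4.31 FPKM in knockout, against 3.26 and 3.14 in wild type. Its libraries of the same day did not overlap between genotypes. The lowest knockout value, at day 0, was below the highest wild type value, at day 6. The ratio of means was 2.25, 1.67 and 1.44 on days 0, 3 and 6, and the value at day 0 was the highest ratio of any of the 6 genes on any day.

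**Figure D1:**
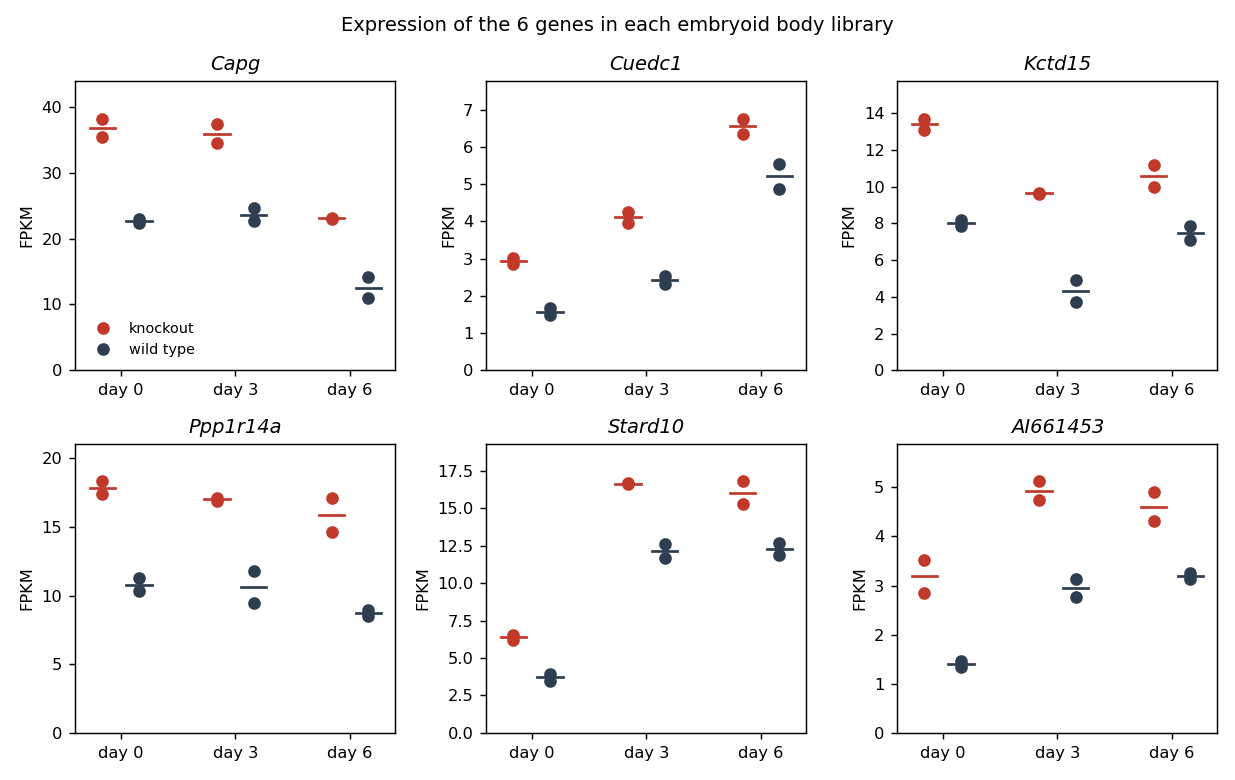
FPKM of each of the 6 genes in each of the 12 libraries by day, knockout in red to the left of wild type in blue, with a line at the mean of 2 libraries and a separate linear axis from 0 per gene. On each day both knockout points lie above both wild type points for all 6 genes, which is how the genes were picked, while the course over days differs from gene to gene.

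On the log2(FPKM + 1) scale, which understates changes of low genes, the median difference of the 6 genes (knockout minus wild type) was 0.68 at day 0, 0.59 at day 3 and 0.43 at day 6. Over all 12472 tested genes the median was -0.00, -0.00 and 0.02. The differences ran from 0.61 for Cuedc1 to 0.79 for AI661453 at day 0. At day 3 they ran from 0.42 for Stard10 to 1.01 for Kctd15, and at day 6 from 0.28 for Cuedc1 to 0.84 for Capg, with an SE of 0.07 to 0.11 on each day. Ranked from the highest difference among the tested genes, the 6 lay at places 108 to 191 at day 0, 134 to 525 at day 3 and 377 to 2578 at day 6. On each day over 100 genes thus had a greater increase than any of the 6.

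A gene was called where limma gave a Benjamini-Hochberg adjusted p under 0.05. By that rule 0.216% of tested genes were higher in knockout at day 0, 1.12% at day 3 and 17.9% at day 6, and the calls in either direction came to 0.369%, 1.19% and 34.1%. The 6 genes are all of those called higher on all 3 days, 0.0481% of the tested genes, which follows from their choice. A further 80 genes were called higher on 2 days and 2217 on 1 day. Among the 6, the largest adjusted p over the 3 days ran from 0.0341 for Cuedc1 to 0.0462 for Capg, nearest to the threshold. Just outside stood the exchange factor gene Arhgef1 and the acyltransferase gene Gpat3, each with 0.0508, then the protease gene Htra1 with 0.0526. Gpat3 had log2 differences of 0.79, 1.51 and 0.55 on days 0, 3 and 6, so genes with differences as large as those of the 6 lay on the other side of the line. The count called on all 3 days was 0 to 17 when 1 of the 12 libraries was left out, with 0 without knockout day 0 replicate 2 and 17 without wild type day 6 replicate 2. In 6 of these 12 fits none of the 6 genes was among those called, in 5 fits 1 to 3 of them were, and in 1 fit, without wild type day 6 replicate 2, all 6 were. Both knockout libraries lay above both wild type libraries on all 3 days in 844 tested genes, 6.77%. All 6 knockout libraries lay above all 6 wild type libraries in 55 genes, 0.441%, among them Kctd15 and Ppp1r14a. Capg, Cuedc1, Stard10 and AI661453 overlapped between genotypes once the days were pooled.

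Between days the genes went separate ways. The test was limma on the change averaged over both genotypes, with Benjamini-Hochberg adjustment over all tested genes. For day 3 against day 0 it called 3 of the 6 genes higher and 1 lower, where 30.5% of all tested genes were higher and 35.6% lower. For day 6 against day 3 it called 2 higher and 1 lower, where the shares were 30.9% and 32.8%. With 6 genes, no departure from those shares is read from these counts. The median change of the 6 was 0.20 and -0.01 for these steps, against -0.02 and -0.01 for all tested genes.

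Stard10 rose most between days 0 and 3, by a log2 change of 1.37 (SE 0.05, adjusted p = 2.15e-07 by limma), with 1.26 in knockout alone and 1.48 in wild type alone. The day 3 mean over both genotypes was 2.86 times that of day 0. Between days 3 and 6 its change of -0.02 was not called (adjusted p = 0.794). AI661453 had the same shape at a smaller size, with a rise of 0.61 (SE 0.07, adjusted p = 1.03e-04) up to day 3 and 0.00 after it (adjusted p = 0.965). Cuedc1 rose at both steps, by 0.39 up to day 3 (SE 0.06, adjusted p = 4.57e-04) and by 0.71 from then to day 6 (SE 0.06, adjusted p = 5.21e-05).

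Kctd15 turned. It fell by 0.60 between days 0 and 3 (SE 0.08, adjusted p = 1.24e-04 by limma) and rose by 0.40 between days 3 and 6 (SE 0.08, adjusted p = 0.00165). In knockout alone the changes were -0.43 and 0.12, and in wild type alone -0.77 and 0.68, and whether the genotypes differ in these changes was not tested, since the same values chose the gene. Capg did not pass between days 0 and 3 (0.01, adjusted p = 0.914) and fell by 0.74 between days 3 and 6 (SE 0.08, adjusted p = 9.24e-05). Ppp1r14a passed at neither step, with -0.05 (adjusted p = 0.603) and -0.18 (adjusted p = 0.0657). Its second change passed without knockout day 6 replicate 2 (-0.23, adjusted p = 0.0361) or without wild type day 3 replicate 2 (-0.25, adjusted p = 0.0157). The calls of the other genes at both steps were kept without any 1 of the 12 libraries.

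**Figure D2:**
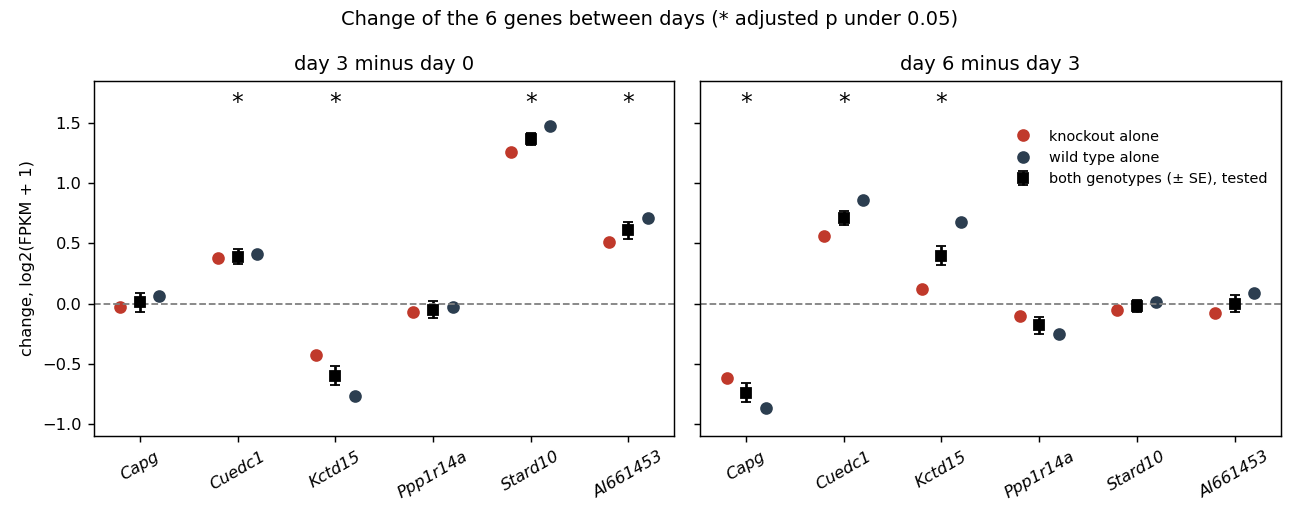
Change of each gene on the log2(FPKM + 1) scale for day 3 minus day 0 (left) and day 6 minus day 3 (right), in knockout alone (red), over both genotypes with the SE (black squares, the tested value) and in wild type alone (blue). Asterisks mark the 4 and 3 genes with an adjusted p under 0.05 by limma, and the dashed line is no change.

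The genes beside the 6 on the chromosomes were examined to see whether the difference extended to them. Of the nearest genes on each side and those that overlap, 10 were tested, and limma with Benjamini-Hochberg adjustment called 0 of them at day 0 and 0 at day 3, where 0 and 1 had an unadjusted p under 0.05. Of all tested genes, 0.369% and 1.19% were called on those days and 14.7% and 14.8% had such a p, so nothing is read from 0 calls among 10 genes. None of the 10 had an absolute log2 difference above 0.34 on those days. Mrps23, a mitochondrial ribosomal protein gene that overlaps Cuedc1, had differences of 0.06, -0.02 and -0.14 on days 0, 3 and 6. The use of strand in counting is not given, so reads of overlapping genes cannot be told apart. Arap1, a gene 1295 bases after Stard10, had -0.11, -0.12 and -0.01. Particl, a noncoding RNA gene 97667 bases before Capg, had 0.34, 0.28 and 0.43 (adjusted p = 0.411, 0.489 and 0.086). Spint2, a protease inhibitor gene 7261 bases before Ppp1r14a, had 0.17, 0.27 and 0.11, none of them called, although the value at day 3 was called with library weights (adjusted p = 0.0124) and without the day 6 libraries (adjusted p = 0.0456). Chst8, a sulfotransferase gene 18959 bases after Kctd15, was too low to be tested. It had 0.474 and 0.703 FPKM in knockout at day 0, against 0.405 and 0.447 in wild type, then 0.867 and 1.25 FPKM in knockout at day 3, against 0.429 and 0.382 in wild type. At day 6 it had 0.42 and 0.31 FPKM in knockout, against 0.284 and 0.182 in wild type, so both knockout libraries lay above both wild type libraries on all 3 days, as they did in 6.77% of tested genes.

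At day 6 limma called 2 of these 10 neighbours, where 34.1% of all tested genes were called. Both calls ended with library weights (adjusted p = 0.0994 for Dpf1 and 0.149 for Vezf1) and with only the day 6 libraries (0.123 and 0.139). Dpf1, a chromatin factor gene 10562 bases after Ppp1r14a, was higher, with a mean of 6.71 FPKM in knockout and 4.29 in wild type (log2 difference 0.54, adjusted p = 0.0126). Its call ended without knockout day 6 replicate 1 (adjusted p = 0.0543) or wild type day 6 replicate 1 (adjusted p = 0.0722). Vezf1, a zinc finger gene 14417 bases before Cuedc1, was lower, with 22.2 FPKM in knockout and 26.6 in wild type (-0.25, adjusted p = 0.0319). That call ended in 6 of the 12 fits without 1 library, with adjusted p up to 0.11 without knockout day 6 replicate 2.

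**Figure D3:**
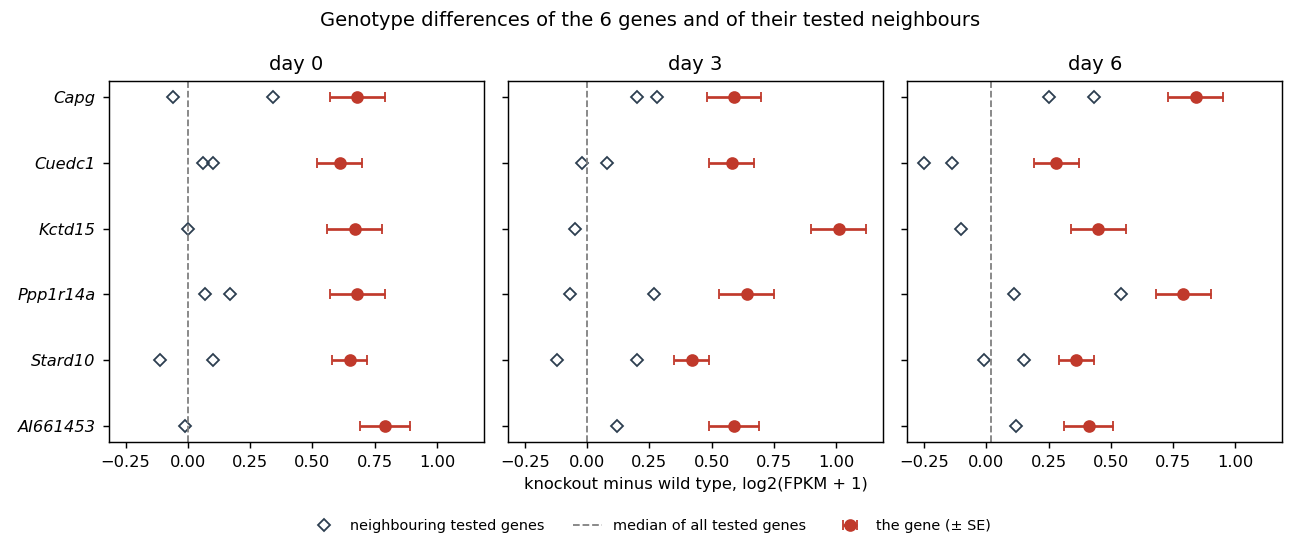
Genotype difference (knockout minus wild type, log2(FPKM + 1)) of each of the 6 genes with its SE (red) and of their 10 tested neighbours (open diamonds), on days 0, 3 and 6, with the median of all tested genes as a dashed line. On each day the neighbours lie closer to that line than the gene they stand beside, apart from Vezf1 beside Cuedc1 at day 6, which lies below it by about the size of the Cuedc1 difference.

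Families of the 6 genes were then followed to see whether related genes moved with them. The 6 lists hold 73 genes without the 6 themselves. They cover gelsolin family and actin capping genes, CUE domain genes, KCTD genes, AP-2 factors, myosin phosphatase with its regulators, and START domain genes. Stard3nl was counted in the START domain list although its protein has no START domain. Of the 73 genes, 53 were tested. At day 0 limma called 0 of the 53 after Benjamini-Hochberg adjustment, and 4 (7.55%) had an unadjusted p under 0.05, where 0.369% of all tested genes were called and 14.7% had such a p. At day 3 it called 1, which was higher, and 6 (11.3%) had an unadjusted p under 0.05, where 1.19% of all tested genes were called and 14.8% had such a p. At day 6 it called 10 higher and 10 lower, 37.7% against 34.1% of all tested genes. Of the 21 calls, 7 held in all 12 fits without 1 library, those of Aup1, Capza1, Capza2, Ppp1cb, Ppp1r12c, Ppp1r14c and Rock1. With only the libraries of the day compared, 20 of the 21 calls ended and that of Ppp1cb was kept. Among the 7, the adjusted p was then 0.0671 for Capza2, 0.094 for Aup1, 0.0957 for Rock1, 0.114 for Ppp1r14c, 0.118 for Capza1 and 0.124 for Ppp1r12c. The call of Ppp1r14c also ended with library weights (0.0831).

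The myosin phosphatase list, which surrounds Ppp1r14a, had 2 genes higher and 3 lower of 11 tested at day 6. Of all tested genes, 34.1% were called on that day. At days 0 and 3 the list had 0 called, and 1 with an unadjusted p under 0.05 on each. Of all tested genes, 0.369% and 1.19% were called on those days, and 14.7% and 14.8% had such a p. Ppp1cb, the catalytic subunit that Ppp1r14a inhibits, had 38.6 and 40.1 FPKM in knockout replicates 1 and 2 at day 6, against 95.0 and 89.6 in wild type. The day 6 libraries were far apart, and Ppp1cb fell in knockout by 1.21 on the log2 scale (SE 0.11, adjusted p = 2.75e-04 by limma). Its means at day 3, of 101 FPKM in knockout and 111 in wild type, were not called. Ppp1r12c, a targeting subunit of the same enzyme, was higher at day 6 (0.47, SE 0.08, adjusted p = 0.00433). Rock1, a kinase that inhibits the enzyme, was lower (-0.41, adjusted p = 0.00325). Of the paralogs of Ppp1r14a, Ppp1r14c had 2.44 and 2.39 FPKM in knockout at day 6, against 4.71 and 3.77 in wild type, and fell (-0.61, SE 0.13, adjusted p = 0.00991). Ppp1r14b, far more abundant, had means of 166 FPKM in knockout and 163 FPKM in wild type cells at day 6 and was called on no day. At day 6 Ppp1r14c and Ppp1r14a thus lay on opposite sides of wild type.

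Among the relatives of Capg, 3 were higher and 2 lower of 7 tested at day 6, where 34.1% of all tested genes were called. Capza2, an alpha subunit of the heterodimeric capping protein, had 43.0 and 43.9 FPKM in knockout replicates 1 and 2, against 64.2 and 63.7 in wild type. It fell by 0.55 (SE 0.07, adjusted p = 0.00112 by limma), and the other alpha subunit gene Capza1 fell by 0.35 (adjusted p = 0.00943). The beta subunit gene Capzb went the other way and was higher (0.26, adjusted p = 0.0226). The call of Capzb ended with library weights (adjusted p = 0.0688) or only the day 6 libraries (adjusted p = 0.16). Its difference was 0.18 without knockout day 6 replicate 2 and 0.22 without wild type day 6 replicate 1. Svil, a gelsolin family gene, had both knockout libraries above both wild type libraries on all 3 days, as 6.77% of tested genes did. Its day 3 difference was called with library weights only (0.26, adjusted p = 0.0195). At day 6 it was called (0.31, adjusted p = 0.0141). That call ended with library weights (adjusted p = 0.0688) or only the day 6 libraries (adjusted p = 0.174). The difference was 0.25 without knockout day 6 replicate 2 or wild type day 6 replicate 1. Flii, a gelsolin family gene, was higher (0.44, adjusted p = 0.0114), a call that ended without knockout day 6 replicate 2 (adjusted p = 0.065) or wild type day 6 replicate 1 (adjusted p = 0.0666). Gsn, gelsolin itself, had day 6 means of 10.7 FPKM in knockout and 6.61 in wild type and was not called, although it was without knockout day 6 replicate 1 (0.88, adjusted p = 0.0189), knockout day 0 replicate 1 (adjusted p = 0.0421) or knockout day 0 replicate 2 (adjusted p = 0.0418).

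Of 15 tested KCTD genes, 2 were higher and 1 lower at day 6, where 34.1% of all tested genes were called. Kctd12b, a relative of the GABA-B receptor subunit gene Kctd12, had 0.883 and 0.557 FPKM in knockout at day 6, against 7.13 and 2.44 in wild type, and fell (-1.63, SE 0.32, adjusted p = 0.00691 by limma). Its call ended without knockout day 6 replicate 2 (adjusted p = 0.0517). Kctd10 was higher by 0.41 (adjusted p = 0.045), with the call ended in 8 of 12 fits without 1 library and an adjusted p of up to 0.269 without knockout day 6 replicate 2. Kctd20 was higher by 0.26 (adjusted p = 0.0262), with 0.147 without knockout day 6 replicate 2 and 0.111 without wild type day 6 replicate 1. Kctd1, the closest paralog of Kctd15, had day 6 means of 4.36 FPKM in knockout and 2.94 in wild type and was called on no day.

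The AP-2 factors, which Kctd15 restrains in zebrafish, were represented by Tfap2c, 1 of 5 genes that was tested. At day 0 it had 49.6 and 49.7 FPKM in knockout replicates 1 and 2, against 35.9 and 34.1 in wild type (log2 difference 0.49). At day 6 it had 17.2 and 11.2 FPKM in knockout, against 10.6 and 9.16 in wild type (0.46). Neither difference was called, though both had an unadjusted p under 0.05 by limma, as 14.7% and 46.4% of all tested genes did. The day 6 difference was 0.74 without knockout day 6 replicate 2. At day 3 Tfap2c had 28.6 and 35.2 FPKM in knockout, against 11.1 and 15.1 in wild type. The libraries did not overlap, and Tfap2c rose in knockout by 1.23 (SE 0.20, adjusted p = 0.0312 by limma). The call ended in 8 of 12 fits without 1 library, with an adjusted p of 0.361 without knockout day 3 replicate 2. Between days Tfap2c fell at both steps, by 1.00 (adjusted p = 2.34e-04) and 0.75 (adjusted p = 0.0016), where Kctd15 fell and then rose.

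In the CUE domain list, 1 of 8 tested genes was higher and 1 lower at day 6, where 34.1% of all tested genes were called. Aup1, which works in degradation of endoplasmic reticulum proteins, had 38.5 and 45.4 FPKM in knockout replicates 1 and 2, against 22.7 and 26.0 in wild type (0.76, SE 0.12, adjusted p = 0.00297 by limma). Smarcad1, a chromatin remodeller, was lower (-0.52, adjusted p = 0.0235), and its call ended without knockout day 6 replicate 1 (0.0596), knockout day 6 replicate 2 (0.112) or wild type day 6 replicate 1 (0.136), all adjusted p. Between days 0 and 3, 5 of the 8 rose and 2 fell, where 30.5% of all tested genes rose and 35.6% fell. Among those that rose was Cuedc2 (0.60, adjusted p = 2.28e-05), which shares the domain with Cuedc1. From day 3 to day 6 Cuedc2 fell by 0.21 (adjusted p = 0.00999), where Cuedc1 rose.

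In the START domain list, 2 of 11 tested genes were higher and 3 lower at day 6, where 34.1% of all tested genes were called. Stard8, a GTPase activating protein gene, had 20.3 and 44.6 FPKM in knockout replicates 1 and 2, against 1.77 and 14.3 in wild type. It was higher by 2.26 (SE 0.66, adjusted p = 0.0294 by limma), but the libraries of each genotype lay wide apart, and the call ended in 7 of 12 fits without 1 library, with an adjusted p of 0.182 without knockout day 6 replicate 2. Stard5, a sterol binding protein gene, was lower (-0.48, adjusted p = 0.0261), with 0.136 without knockout day 6 replicate 2 and 0.142 without wild type day 6 replicate 1. Stard13 was higher (0.41, adjusted p = 0.0488) until any of 9 libraries was left out, and the highest adjusted p was 0.189, without wild type day 6 replicate 1. Pctp, the gene of the phosphatidylcholine transfer protein, shares a lipid ligand with Stard10. It was lower at day 6 (-0.34, adjusted p = 0.0444), a call that ended in 10 of the 12 fits, with an adjusted p of up to 0.147. Between days 0 and 3, 6 of the 11 rose and 1 fell, against 30.5% and 35.6% of all tested genes. Pctp rose by 0.31 (adjusted p = 0.00701), as Stard10 did by 1.37.

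The families also changed between days. Of the 53 tested relatives, limma with Benjamini-Hochberg adjustment called 21 higher and 13 lower at day 3 than at day 0, and 19 higher and 15 lower at day 6 than at day 3. That is 64.2% at each step, close to the share of all genes. In the START domain list Stard4, for a sterol carrier, rose by 1.04 (adjusted p = 4.32e-05) and Dlc1 fell by 1.65 (adjusted p = 1.17e-05) between days 0 and 3. Ppp1r14c, the paralog of Ppp1r14a, rose at that step by 1.56 (SE 0.09, adjusted p = 1.92e-06), where Ppp1r14a was not called. Gsn rose by 1.26 between days 3 and 6 (SE 0.15, adjusted p = 1.72e-04) and Capza2 fell by 0.39 (adjusted p = 2.34e-04). Capzb was not called at that step. Capg thus shared a direction with Capza2 and not with gelsolin. Kctd1 rose at that step by 1.17 (SE 0.19, adjusted p = 7.64e-04), as its paralog Kctd15 did by 0.40.

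Markers of other cell types moved with genotype as well, and their part in the differences of the 6 genes was not tested. The summed level of 8 trophoblast and simple epithelium markers, which include Krt8, Krt18, Cdx2 and Tfap2c, was 79.3 to 82.8 FPKM in knockout and 49.8 to 50.7 FPKM in wild type at day 0. At day 3 it was 120.3 to 121 FPKM in knockout and 64.7 to 75.6 FPKM in wild type. At day 6 it was 732 to 1146 FPKM in knockout and 162 to 448 FPKM in wild type. Like the 6 genes, this sum was higher in knockout on all 3 days without overlap. At day 3 the Tfap2c mean was 31.9 FPKM in knockout and 13.1 FPKM in wild type. Of the 8 markers, Tfap2c alone held most of the sum at day 0, with means of 49.7 FPKM in knockout and 35 FPKM in wild type. Of the 7 that were tested, limma called 0 at day 0, where 3 had an unadjusted p under 0.05, then 2 higher at day 3 and 6 higher at day 6. The shares of all tested genes called higher were 0.216%, 1.12% and 17.9%, and 14.7% had an unadjusted p under 0.05 at day 0. Cdx2 lay under 0.1 FPKM in wild type at days 0 and 3, and Elf5 in wild type at day 3. In the list of 10 extraembryonic endoderm markers the summed level was 279 to 414 FPKM in knockout and 148 to 234 FPKM in wild type at day 6. At day 0 it was 83.5 to 89.1 FPKM in knockout and 78.4 FPKM in both wild type libraries. At day 3 the ranges overlapped, with 82.6 to 85.2 FPKM in knockout and 79.0 to 88.7 FPKM in wild type. The 10 feeder fibroblast markers summed to 17.9 to 33.4 FPKM in knockout and 10.6 to 16.1 FPKM in wild type at day 6, and overlapped between genotypes at days 0 and 3.

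**Figure D4:**
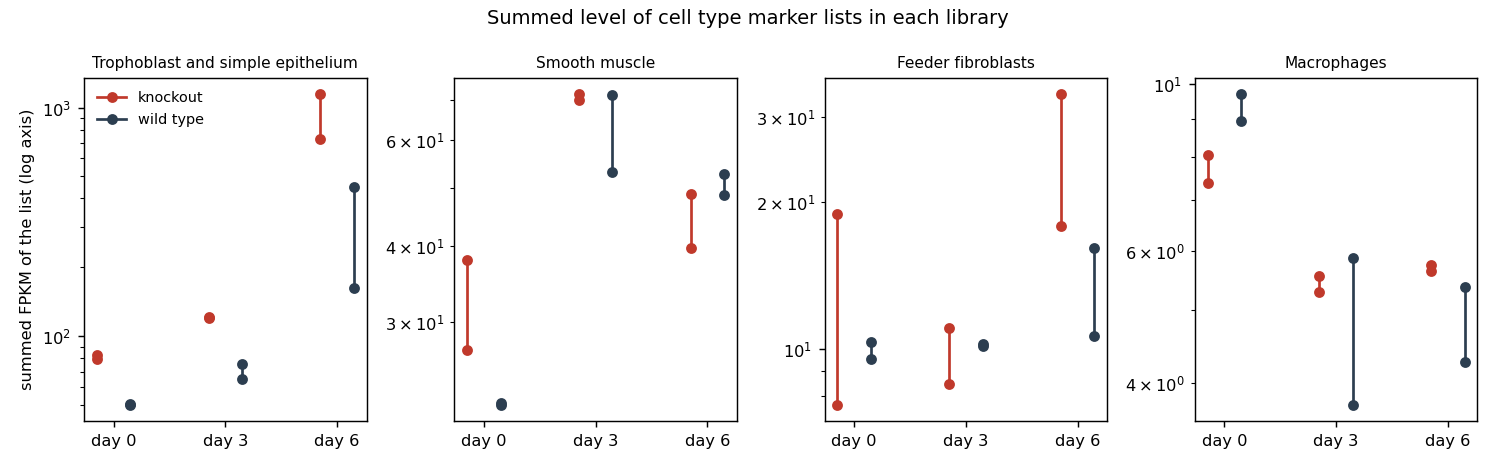
Summed FPKM of 4 marker lists in each library by day, knockout in red to the left of wild type in blue, on log axes, with a line that joins the 2 libraries of a group. The trophoblast and simple epithelium sum is higher in knockout on all 3 days, the smooth muscle sum is higher in knockout without overlap at day 0 alone, the macrophage sum is lower in knockout at day 0 and higher at day 6, and the feeder fibroblast sum overlaps between genotypes at days 0 and 3.

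For each of the 6 genes, the 3 tested genes with the highest Pearson r of log2(FPKM + 1) were looked up. The points are the same 12 libraries of 2 genotypes and 3 days, so r describes a shared course over both. Stard10 had the closest companions, namely Mlec (r = 0.988), for an endoplasmic reticulum lectin, Patj (0.985), for a protein of epithelial polarity, and Cldn6 (0.985), for a tight junction claudin. Cldn6 changed by 1.73 and -0.04 at the steps between days, close to the course of Stard10. Cuedc1 was followed by Efs (0.981), Prdx2 (0.974) and Rnpep (0.971), and AI661453 by Ralgds (0.967), Eif4g3 (0.943) and Cpt1c (0.942). Ralgds was also among the genes that missed the choice narrowly, with a largest adjusted p of 0.0552. Capg was followed by Dhx37 (0.971), by the epithelial splicing regulator gene Esrp2 (0.964) and by Ahdc1 (0.945). Esrp2 had knockout minus wild type differences of 0.78, 0.67 and 0.64 on days 0, 3 and 6. Kctd15 was followed by the noncoding RNA gene Neat1 (0.958), Abca7 (0.927) and Gadd45b (0.921), all of which had lower means at day 3 than at day 0. Ppp1r14a was followed by Cdc42bpg (0.968), Ndor1 (0.927) and the homeobox gene Rhox9 (0.922), whose differences of 1.17, 2.68 and 2.43 exceeded those of Ppp1r14a on each day.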

How the data were processed

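The authors deposited FPKM values of the 12 embryoid body libraries, a unit normalized to transcript length and mapped fragments. Per the labels' protocols, Trim Galore 0.4.1 removed adapters from single-end reads and TopHat2 2.0.13 mapped them to mm10. The submitters' processing notes also name Cufflinks 2.2.1, Cuffdiff and HTSeq 0.6.1, without their roles. Which gene annotation was used, and whether strand was, is not given in the sources. Medians of log2 ratios spanned 0.0069 between libraries, so the deposited values were already scaled to one another. The 92 spike-in rows, all at 0, were left out. Depth was estimated from the steps of low FPKM values.

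Values were tested as log2(FPKM + 1) with limma 3.58.1 in R 4.3.3. The fit had 1 mean per genotype and day and a variance trend, and tests were two-sided with Benjamini-Hochberg adjustment over the 12472 genes whose mean FPKM was 1 or more. The script was tested on simulated data. Symbols matched RefSeq in 23661 genes directly and 704 by synonym, and 93 did not match. The labels do not say that replicate numbers pair samples, and the numbers were checked for pairing. The genes and the lists of relatives and markers were chosen with earlier results of these data known. Relatives are named where called, up to 3 per list and comparison. Added after their values were seen were Gsn, Svil, Capzb, Kctd1, Ppp1r14b, Rock1, Cuedc2, Pctp, Sox2, Chst8, Myl9, Vill and Kctd9. Alternatives were a pseudocount of 0.1, no filter, rescaling, library weights, a replicate block, fewer days and leaving out each library. A table of undifferentiated ESCs holds 6 libraries, 3 per condition, against 4 labelled samples, 2 per genotype. It was not used, so the planned ESC comparison was not run, and 5 ChIP and input samples were not analysed here.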

Additional observations from a re-analysis of the deposited data

Results flagged for a closer look

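The 10 tested neighbours and 53 tested relatives of the 6 genes were searched for a switch of side between days. In 8 of them every knockout library lay on one side of every wild type library on one day. On another day they lay on the opposite side. How many of all tested genes do so was not counted, so nothing is read from the number 8. The difference between the days was not tested for any of the 8. Dpf1, which lies after Ppp1r14a, had a knockout minus wild type log2 difference of -0.07 at day 3 and 0.54 at day 6. Vezf1, which lies before Cuedc1, had 0.08 at day 3 and -0.25 at day 6. Smarcad1, of the CUE domain list, had 0.16 at day 3 and -0.52 at day 6. Myl9, of the myosin phosphatase list, had 0.69 at day 0 and -0.78 at day 6, called on neither day. Vill, of the gelsolin list, had 0.04 at day 0 and -0.23 at day 6. Kctd9, of the KCTD list, had -0.17 at day 0 and 0.06 at day 6. Kctd12b, of the same list, had 0.17 at day 0 and -0.17 at day 3. Pctp, of the START domain list, had 0.24 at day 0 and -0.21 at day 3. With 2 libraries per group, no library could be examined as an outlier.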

How the results depend on the processing

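The changes of the 6 genes between days kept direction and side of the threshold in 220 of 222 values under the alternatives tried, and the other 2 are those of Ppp1r14a given in the report. Of 34 changes between days examined in relatives, 33 were kept in every alternative, and the exception was the rise of Flii between days 0 and 3, which 4 libraries each ended when left out. Genotype differences of the 6 moved by more than the spread between replicates in 16 of 336 alternative values, while their sign was fixed by the choice of genes. The number of genes called higher in knockout on all 3 days was 6, and it was 11 with a pseudocount of 0.1, 13 with library weights per group, and 0 with no filter, with the replicate block, or with only the libraries of the days compared. The 6 genes were among the 11, and 3 of them (Capg, Ppp1r14a and Stard10) among the 13. Without 1 library the number was 0 to 17, and none of the 6 genes was among those called in 6 of these 12 fits, all 6 in 1 fit. At day 0 the 46 calls in either direction became 111 with a pseudocount of 0.1, 122 with weights, 20 with the replicate block, 8 with only that day's libraries and 8 to 184 without 1 library. At day 3 the 149 became 84 with no filter, 1397 with weights, 5 with only that day's libraries and 14 to 265 without 1 library. At day 6 the 4249 became 2011 with weights, 20 with only that day's libraries and 2021 to 4868 without 1 library. Without the day 6 libraries, an alternative chosen after seeing the data, the calls were 360 at day 0 and 545 at day 3. Calls between days ran from 7421 to 8541 and from 6953 to 8126 without 1 library, around 8248 and 7955. Leaving out a library leaves 1 in its group, which is then assumed to vary like the others. Same-numbered libraries correlated at -0.08 to 0.24 in their deviations. The labels do not say which ESC line a number stands for on each day, so the numbers were not taken as pairs. The block also ended the calls of Tfap2c at day 3 (adjusted p = 0.0507 by limma) and Stard13 at day 6 (adjusted p = 0.0564). Planned ESC alternatives were not run. Depth limits the lower genes: 1 FPKM in 2 kb is 29.9 reads in the shallowest library.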
